A study of Mus musculus with 188 samples.

Results

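Brain slice cultures of the mouse were exposed for 24 h to 200 µM heme bound to hemopexin (hemeHpx), and the mRNA of 10 treated libraries was compared with that of 10 control libraries. The comparison took every library of sequencing batch 1 whose treatment tag gives hemeHpx at 200 µM and 24 h, and every control library of that batch and time. These are 20 of the 60 libraries of batch 1 and 20 of the 188 libraries of the series. A further 10 libraries of the same batch, exposed for 24 h to 200 µM heme carried by albumin (heme-albumin), shared the statistical fit and served for a direct comparison of the carriers. Haptoglobin appears in the titles of these hemeHpx libraries, but hemopexin in their treatment tags, in the library names and in the methods of the study, and hemopexin was taken as the partner here.

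All slices came from wild-type C57BL/6J young adult mice and were cut coronally, kept on membrane inserts and treated after a week in culture. The library names carry the letter M or W, and the summed level of 4 Y-linked genes was at least 164 CPM (read counts scaled to a common library size) in the M libraries and at most 0.0837 CPM in the W libraries. Controls received vehicle and no heme. Human hemopexin and human albumin were given to mouse tissue. The treatment note of the labels speaks of heme-albumin given with hemopexin, whereas the study's methods describe hemin mixed directly with hemopexin, so whether albumin was present beside hemeHpx was not settled. None of the 3 groups received hemopexin or albumin without heme, so an effect of the carrier protein and an effect of its heme cannot be told apart here. The labels do not tie the libraries of a group to separate animals, so p-values measure the spread between these libraries, which may in part be technical.

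Heme is the iron-holding cofactor of hemoglobin and is released when red blood cells break down after a hemorrhage. Hemopexin is the plasma protein that binds free heme most tightly, and the receptor Lrp1 takes up the complex. Inside a cell, heme oxygenase opens the heme ring and sets iron free. Heme also withdraws the repressor Bach1 from the DNA element that the transcription factor NRF2 uses, represses the first enzyme of heme synthesis, and through the iron that it releases lowers the transferrin receptor and raises ferritin and the iron exporter ferroportin.

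The control libraries held 11038484 to 29576977 read counts each (median 16404294) and the hemeHpx libraries 15244938 to 44199060 (median 25519549). The tissue identity was checked against marker genes. The summed level of 14 astrocyte markers ran from 13307 to 16557 CPM in the controls and from 14012 to 16266 CPM with hemeHpx, and that of 12 myelin genes from 17217 to 30749 CPM and from 19422 to 32789 CPM. Markers of neurons (879 to 1253 CPM and 896 to 1444 CPM) and of microglia (654 to 1769 CPM and 696 to 1488 CPM) were present in every library, and of 15 blood cell markers only 2 reached the count filter.

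The controls did not all resemble the hemeHpx libraries in technical measures. When the 60 library names of batch 1 were put in order and read in runs of 12, the libraries at places 1 to 3 of a run had more mitochondrially encoded RNA (3.84% to 5.57% of counts, 15 libraries) than most at places 4 to 12 (2.55% to 4.29%, 45 libraries). This order is only that of the names, and what it stood for in the laboratory is not given. It placed 5 of the 10 controls but only 1 of the 10 hemeHpx libraries at places 1 to 3. Those 5 controls (replicates 1, 3, 5, 7 and 8) had totals of 11038484 to 13393773 counts and a mitochondrial share of 4.77% to 5.57%, whereas the other 5 controls had 19414814 to 29576977 counts and a share of 3.07% to 3.29%. The 9 hemeHpx libraries at places 4 to 12 had 19789493 to 44199060 counts and a share of 2.90% to 3.37%, and thus lay close to the second set of controls.

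**Figure D1:**
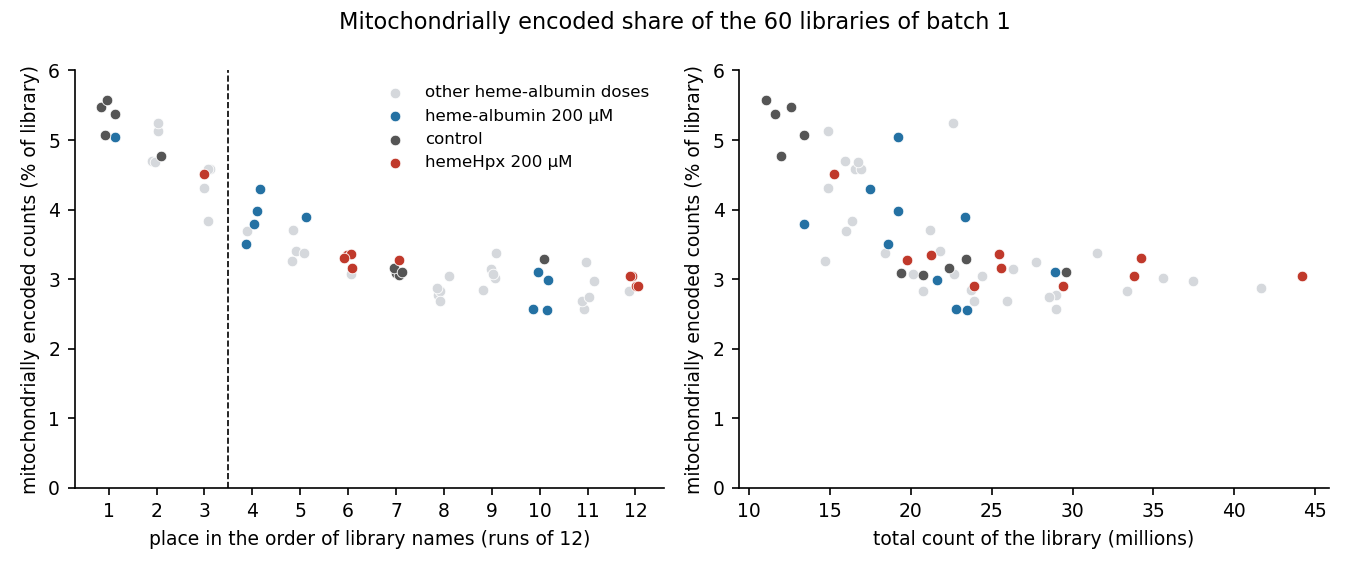
Mitochondrially encoded share of the counts (percent, vertical axes) of the 60 libraries of batch 1 against their place in the order of library names (left, with a dashed line after place 3) and against their total count (right), 1 point per library. The 5 controls at places 1 to 3 sit between 4.77% and 5.57%, and the 5 at places 4 to 12 between 3.07% and 3.29%, beside the 9 hemeHpx libraries at 2.90% to 3.37%.

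The libraries also differed in how much choroid plexus, the secretory epithelium of the ventricles, they held. The mean level of 10 choroid plexus genes split the libraries cleanly. It was above 1 on the log2 CPM scale in 3 of 10 controls, in 6 of 10 hemeHpx libraries and in 2 of 10 heme-albumin libraries, and the gap between the sets ran from 0.115 to 2.67 in the controls and from 0.38 to 2.52 with hemeHpx. At places 4 to 12 such libraries were 1 of 5 controls (replicate 2) and 5 of 9 hemeHpx libraries. In these bulk samples, fewer cells of a type and less RNA per cell cannot be told apart.

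**Figure D2:**
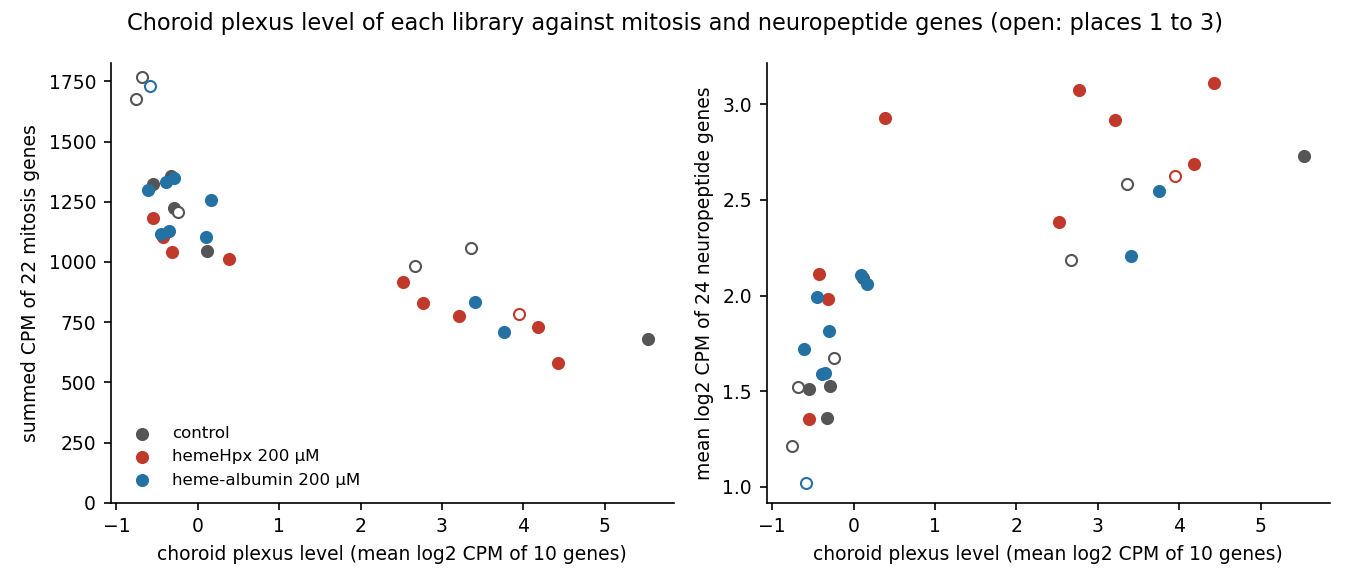
Choroid plexus level of each library (mean log2 CPM of 10 genes, horizontal axes) against the summed CPM of 22 mitosis genes (left) and the mean log2 CPM of 24 neuropeptide genes (right), 1 point per library, open at places 1 to 3. The libraries fall into 2 sets with a gap between 0.38 and 2.52, and mitosis genes sum to 580 to 1059 CPM in the control and hemeHpx libraries of the upper set and to 1014 to 1767 CPM in those of the lower set.

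Differences were tested per gene with edgeR's quasi-likelihood F test on the counts, with Benjamini-Hochberg adjustment over all genes tested and an adjusted p under 0.05 as the threshold. Over all 30 libraries, 1600 of 15198 genes (10.5%) differed between hemeHpx and control, of which 697 (4.59%) were higher and 903 (5.94%) lower with hemeHpx. Most of these differences were small. Their median size was 0.29 on the log2 scale, and 31 reached 1, of which 28 were higher. The CPM ranges of the 2 groups did not overlap for 10 genes (0.0658% of those tested), of which Slc48a1, Osgin1, Gpc1, Uchl1, Fos, Arc, Mmp17 and Parvb were higher and As3mt and Gins1 lower with hemeHpx.

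The number of genes called moved widely with the libraries in the fit. Leaving out 1 library gave 70 (without control replicate 3) to 4098 (without control replicate 2). Of the 1600 genes, 1072 also differed between places 1 to 3 and the later places in a fit with place as a term (37.0% of all genes did). Both contrasts use the same controls at places 1 to 3. With the 23 libraries at places 4 to 12 alone, which leaves 5 controls, 11 genes were called, all higher with hemeHpx (0.071% of 15501 genes). With the choroid plexus level of each library added to that fit as a term, 105 genes were called, 71 higher and 34 lower (0.677%, 0.458% and 0.219%). Of the 1600 genes, 1596 kept their direction in this last fit, with a median size of 0.13, and 71 of the 105 were among the 1600. These fits share libraries and are not independent of each other. Both the use of places and the choroid plexus term were chosen after the data had been seen. Other corrections of all 30 libraries fell between. With the choroid plexus level as a term 1192 genes were called (7.84%), 599 higher (3.94%) and 593 lower (3.9%). With place as a term 18 were called (0.118%), 15 higher (0.0987%) and 3 lower (0.0197%), and with a correction for GC content and transcript length 184 (1.21%), 77 higher (0.507%) and 107 lower (0.704%). In what follows, the fit over all 30 libraries is called the full comparison, and the fit over the 23 libraries with the choroid plexus term the matched comparison. The name stands for like places and an adjustment only. Its groups were not alike in choroid plexus, which 1 of 5 controls and 5 of 9 hemeHpx libraries held. The matched comparison rests on 5 controls against 9 hemeHpx libraries, and leaving out control replicate 2, the only one of its controls with choroid plexus, left 8 genes called, whereas leaving out control replicate 6 gave 496.

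**Figure D3:**
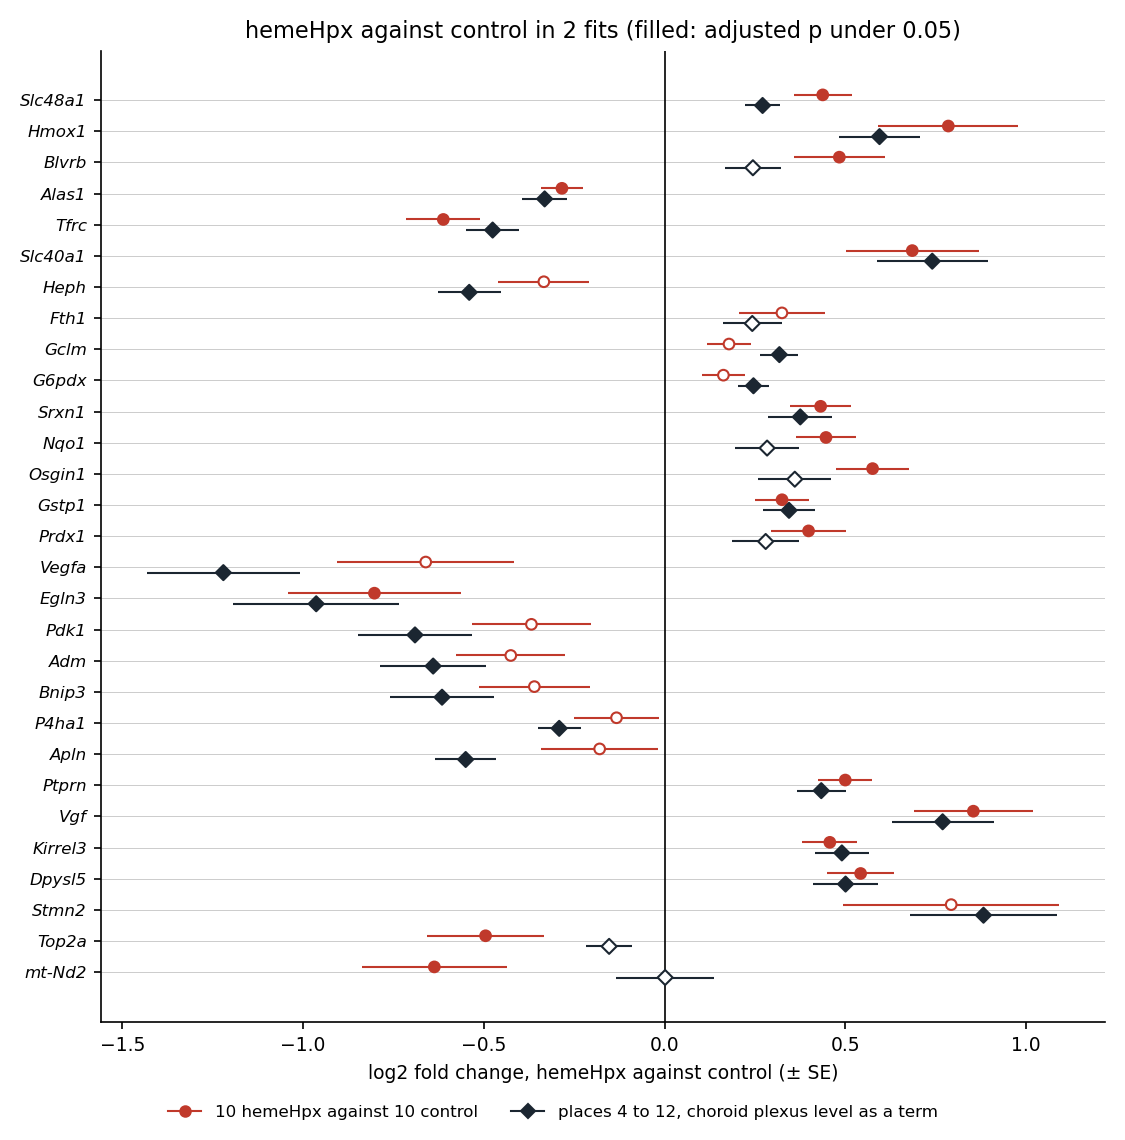
Log2 fold change of hemeHpx against control (horizontal axis, bars of 1 standard error) for 29 genes in the full comparison (circles) and in the matched comparison (diamonds), filled where the adjusted p was under 0.05. Slc48a1, Hmox1, Alas1, Tfrc and Slc40a1 are filled in both, Vegfa is filled in the matched comparison alone, and mt-Nd2 goes from -0.64 to 0.0015.

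Hmox1, the inducible heme oxygenase, was higher with hemeHpx in both comparisons. Its level ran from 646 to 2192 CPM in the 10 controls (median 1198 CPM) and from 1462 to 3246 CPM in the 10 hemeHpx libraries (median 2369 CPM). The groups overlapped, and 6 of 10 hemeHpx libraries lay above the highest control. The log2 fold change was 0.79 ± 0.19 (SE, adjusted p = 0.0246) in the full comparison. In the matched comparison it was 0.59 ± 0.11 (adjusted p = 0.0124), where the 5 controls at places 4 to 12 had 1036, 1077, 1122, 1526 and 2192 CPM. The highest of these was control replicate 2, which held choroid plexus transcripts. Without that library the log2 fold change was 0.60, with an adjusted p of 0.0737. In the full comparison the call was lost without control replicate 1 (0.70, adjusted p = 0.0596) or control replicate 3 (0.70, adjusted p = 0.0569). With heme-albumin the level ran from 2256 to 4480 CPM (median 3341 CPM), and hemeHpx lay 0.54 ± 0.19 lower on the log2 scale (adjusted p = 0.0358).

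Slc48a1, the transporter that carries heme out of lysosomes into the cytosol, was the member of the heme uptake list that changed. Its level was 178 to 290 CPM in the controls (median 246 CPM) and 296 to 363 CPM with hemeHpx (median 305 CPM), and all 10 hemeHpx libraries lay above every control. The controls at places 1 to 3 lay low, at 178 to 249 CPM (median 206 CPM), against 244 to 290 CPM (median 249 CPM) in the later ones. The log2 fold change was 0.44 ± 0.08 in the full comparison (adjusted p = 0.00698) and 0.27 ± 0.05 in the matched one (adjusted p = 0.00909), and without control replicate 2 the matched value was 0.27 with an adjusted p of 0.0668. Slc48a1 overlaps Hdac7 on the opposite strand in the annotation used, and whether the authors counted by strand is not given in the sources used here.

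The receptors did not pass the test. Of the 11 genes of heme and hemoglobin uptake and transport, Slc48a1 alone was called in either comparison. Lrp1, the hemopexin receptor, had 1405 to 2070 CPM in the controls and 1305 to 2078 CPM with hemeHpx, with a log2 fold change of -0.01 ± 0.09 (adjusted p = 0.958). Cd163, the hemoglobin-haptoglobin receptor of macrophages, had 1.29 to 8.31 CPM and 2.30 to 5.81 CPM (log2 fold change -0.19 ± 0.24, adjusted p = 0.613). The endogenous Hpx transcript stood at 0.239 to 1.09 CPM in the controls and at 0.291 to 0.769 CPM with hemeHpx (log2 fold change -0.23 ± 0.21, adjusted p = 0.484). The heme exporter Flvcr1 had medians of 44.2 and 54 CPM and a log2 fold change of 0.22 ± 0.10 (adjusted p = 0.122).

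Among the 5 genes of heme breakdown, 3 were called higher in the full comparison, against 4.59% of all genes, and Hmox1 alone in the matched one. Blvrb, a biliverdin and flavin reductase, ran from 15.3 to 36.1 CPM in the controls and from 25.5 to 44.3 CPM with hemeHpx, a log2 fold change of 0.48 ± 0.13 (adjusted p = 0.0281) in the full comparison and of 0.24 ± 0.08 (adjusted p = 0.135) in the matched one. Por, which hands electrons to heme oxygenase, differed by 0.21 ± 0.07 (adjusted p = 0.0479), and by 0.09 ± 0.05 (adjusted p = 0.521) in the matched comparison. The constitutive heme oxygenase Hmox2 (0.04 ± 0.07, adjusted p = 0.736) and the biliverdin reductase Blvra (0.04 ± 0.10, adjusted p = 0.781) did not pass the test.

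Alas1, the first and rate-limiting enzyme of heme synthesis outside erythroid cells, was lower with hemeHpx. The 10 controls held to a narrow range of 63.5 to 73.9 CPM (median 67.4 CPM). With hemeHpx the level was 47.4 to 73.4 CPM (median 54.8 CPM), and 9 of 10 libraries lay below the lowest control, the exception being replicate 4 at 73.4 CPM. The log2 fold change was -0.28 ± 0.06 (adjusted p = 0.0164) in the full comparison and -0.33 ± 0.06 (adjusted p = 0.0124) in the matched one, and the median of the controls was 67.9 CPM at places 1 to 3 and 67 CPM at places 4 to 12. Of the 10 genes of heme synthesis tested, Alas1 alone passed the threshold in both comparisons. With heme-albumin the level was 32.7 to 40.6 CPM, below every hemeHpx library, and the log2 difference between the carriers was 0.64 ± 0.06 (adjusted p = 1.5e-08).

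**Figure D4:**
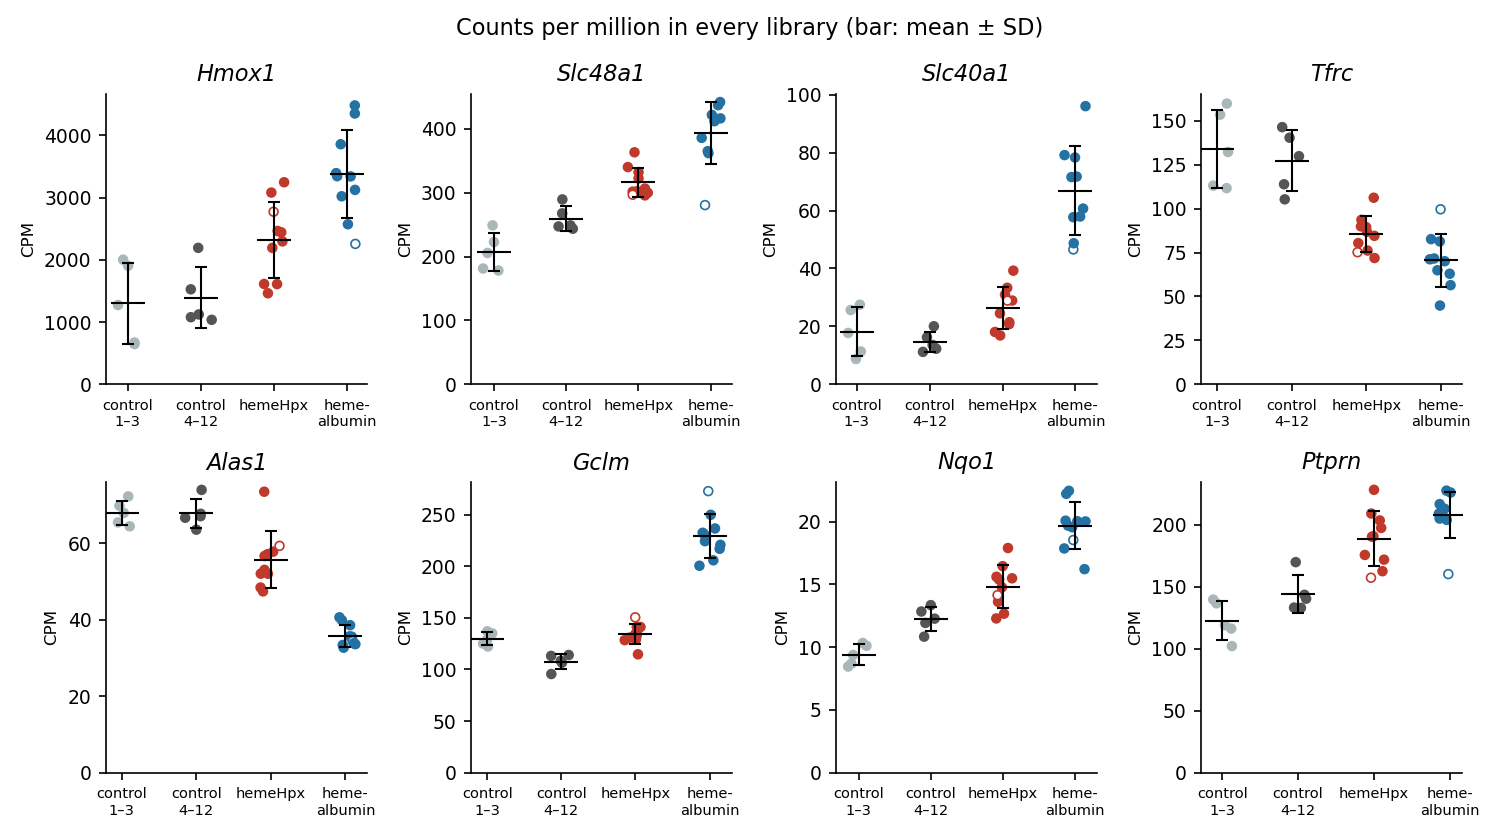
CPM of each library (points) for 8 genes in controls at places 1 to 3, controls at places 4 to 12, hemeHpx and heme-albumin libraries, with bars for the mean ± SD and open symbols for hemeHpx and heme-albumin libraries at places 1 to 3. All 10 hemeHpx libraries lie above every control for Slc48a1, and 9 of 10 lie below every control for Alas1 and for Tfrc.

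Iron genes moved in both directions. Tfrc, the transferrin receptor that imports iron, was lower with hemeHpx. It had 105 to 160 CPM in the controls (median 131 CPM) and 71.9 to 106 CPM with hemeHpx (median 85.7 CPM), and 9 of 10 hemeHpx libraries lay below the lowest control. The log2 fold change was -0.61 ± 0.10 in the full comparison (adjusted p = 0.00472) and -0.48 ± 0.07 in the matched one (adjusted p = 0.00479). Leaving out any 1 control or hemeHpx library kept the call in the full comparison. In the matched one it was lost without control replicate 2, where the log2 fold change was -0.42 (adjusted p = 0.0668).

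Slc40a1, which encodes the iron exporter ferroportin, was higher with hemeHpx. The controls had 8.74 to 27.5 CPM (median 14.9 CPM) and the hemeHpx libraries 16.9 to 39.2 CPM (median 26.7 CPM). The 2 highest controls, at 25.6 and 27.5 CPM, were replicates 5 and 7 at places 1 to 3, and 7 of the 9 later hemeHpx libraries lay above all 5 later controls. This was a log2 fold change of 0.69 ± 0.18 (adjusted p = 0.0295) in the full and 0.74 ± 0.15 (adjusted p = 0.0237) in the matched comparison. Heme-albumin gave 46.6 to 96.1 CPM, above every hemeHpx library, and hemeHpx was lower by 1.35 ± 0.18 on the log2 scale (adjusted p = 6.69e-06).

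Ferritin transcripts, the targets of translational control by iron, did not pass the threshold. Fth1, the ferritin heavy chain, had medians of 4844 CPM in the controls and 5845 CPM with hemeHpx (log2 fold change 0.32 ± 0.12, adjusted p = 0.0688). For Ftl1, the light chain, the log2 fold change was 0.54 ± 0.19 (adjusted p = 0.0569) in the full comparison and 0.15 ± 0.10 (adjusted p = 0.575) in the matched one, and the controls at places 1 to 3 (median 2115 CPM) lay below the later ones (median 2765 CPM).

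Of the 19 iron genes tested, 1 was higher and 3 were lower in the full comparison (4.59% and 5.94% of all genes), and 1 was higher and 2 were lower in the matched one (0.458% and 0.219%). Slc40a1 and Tfrc were called in both. Cp, the ferroxidase ceruloplasmin, and Ireb2, an iron-sensing RNA-binding protein, were lower in the full comparison by log2 fold changes of -0.32 ± 0.10 (adjusted p = 0.0375) and of -0.23 ± 0.07 (adjusted p = 0.0346). Both lay higher in the controls at places 1 to 3, and their matched values were -0.15 ± 0.09 (adjusted p = 0.53) and -0.05 ± 0.04 (adjusted p = 0.735). Heph, the membrane-bound ferroxidase hephaestin, was lower in the matched comparison, with -0.54 ± 0.09 (adjusted p = 0.00614), and did not pass the threshold in the full one (-0.33 ± 0.13, adjusted p = 0.0727). Its level was 6.37 to 11.2 CPM in the controls and 4.94 to 8.95 CPM with hemeHpx, and it stayed called when any 1 library of the matched comparison was left out.

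NRF2 is the transcription factor that drives detoxifying enzymes and the supply of glutathione and NADPH. It binds, with a small MAF protein, an antioxidant response element whose core letters are TGACNNNGC, and Bach1 competes for the same element. The promoters of 3 members whose levels are given below are shown because they hold those letters, on either strand, within 250 bases before the transcription start. They come from RefSeq on GRCm38.p6 and are read along the strand of the gene, with the match in capitals. The Gclm window is chr3:122245307-122245556 on the plus strand, that of G6pdx is chrX:74428881-74429130 on the minus strand and that of Prdx1 is chr4:116685349-116685598 on the plus strand.
Gclm: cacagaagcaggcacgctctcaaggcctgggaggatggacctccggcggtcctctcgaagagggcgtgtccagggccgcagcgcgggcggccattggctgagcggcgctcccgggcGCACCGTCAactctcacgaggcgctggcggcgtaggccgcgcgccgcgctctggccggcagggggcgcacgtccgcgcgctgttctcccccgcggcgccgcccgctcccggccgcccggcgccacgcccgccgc
G6pdx: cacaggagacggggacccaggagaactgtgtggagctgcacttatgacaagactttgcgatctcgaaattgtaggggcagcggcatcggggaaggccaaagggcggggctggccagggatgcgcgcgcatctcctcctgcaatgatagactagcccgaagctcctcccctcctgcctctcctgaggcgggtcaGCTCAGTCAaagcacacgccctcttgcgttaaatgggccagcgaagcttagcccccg
Prdx1: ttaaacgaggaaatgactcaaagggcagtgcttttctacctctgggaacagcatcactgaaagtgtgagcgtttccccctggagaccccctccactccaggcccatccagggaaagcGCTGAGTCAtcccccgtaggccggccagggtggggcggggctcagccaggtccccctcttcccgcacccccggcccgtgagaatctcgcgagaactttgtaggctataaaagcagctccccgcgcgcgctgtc
The first base of the match lies 134 bases before the start in Gclm, 57 in G6pdx and 133 in Prdx1. Of 38 listed NRF2 targets, 32 had a promoter in the table, and 6 of these (18.8%) held the letters in the window, against 10.1% of 27025 promoters and 11.9% of the 11459 promoters of genes tested. Hmox1, Slc48a1, Gclc, Gsr, Gsta4 and Abcc1 had no entry. Nqo1, Srxn1, Osgin1, Gstp1, Gstm1, Pgd, Taldo1, Blvrb and Slc7a11 had an entry and no match in this window. A match in letters does not show a bound site.

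NRF2 targets were the heme-responsive group with the most calls, and their changes were moderate. Of the 36 tested, 17 were higher and none was lower in the full comparison, against 4.59% of all genes higher, and the median of their log2 fold changes was 0.24 (all genes tested, close to 0). In the matched comparison 6 were higher and none was lower, against 0.458% of all genes higher, with a median of 0.20, and 34 of 36 had a positive value. The 6 were Hmox1, Slc48a1, Gclm, G6pdx, Gstp1 and Srxn1, of which G6pdx alone stayed called without control replicate 2 (adjusted p = 0.0297). The summed level of the list moved with the choroid plexus set as well. It was 14749 to 17201 CPM in the 3 controls with choroid plexus transcripts and 9503 to 14246 CPM in the 7 without, and 15895 to 21174 CPM in the 6 such hemeHpx libraries and 13644 to 16363 CPM in the other 4, so that hemeHpx lay higher by its median in both sets.

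**Figure D5:**
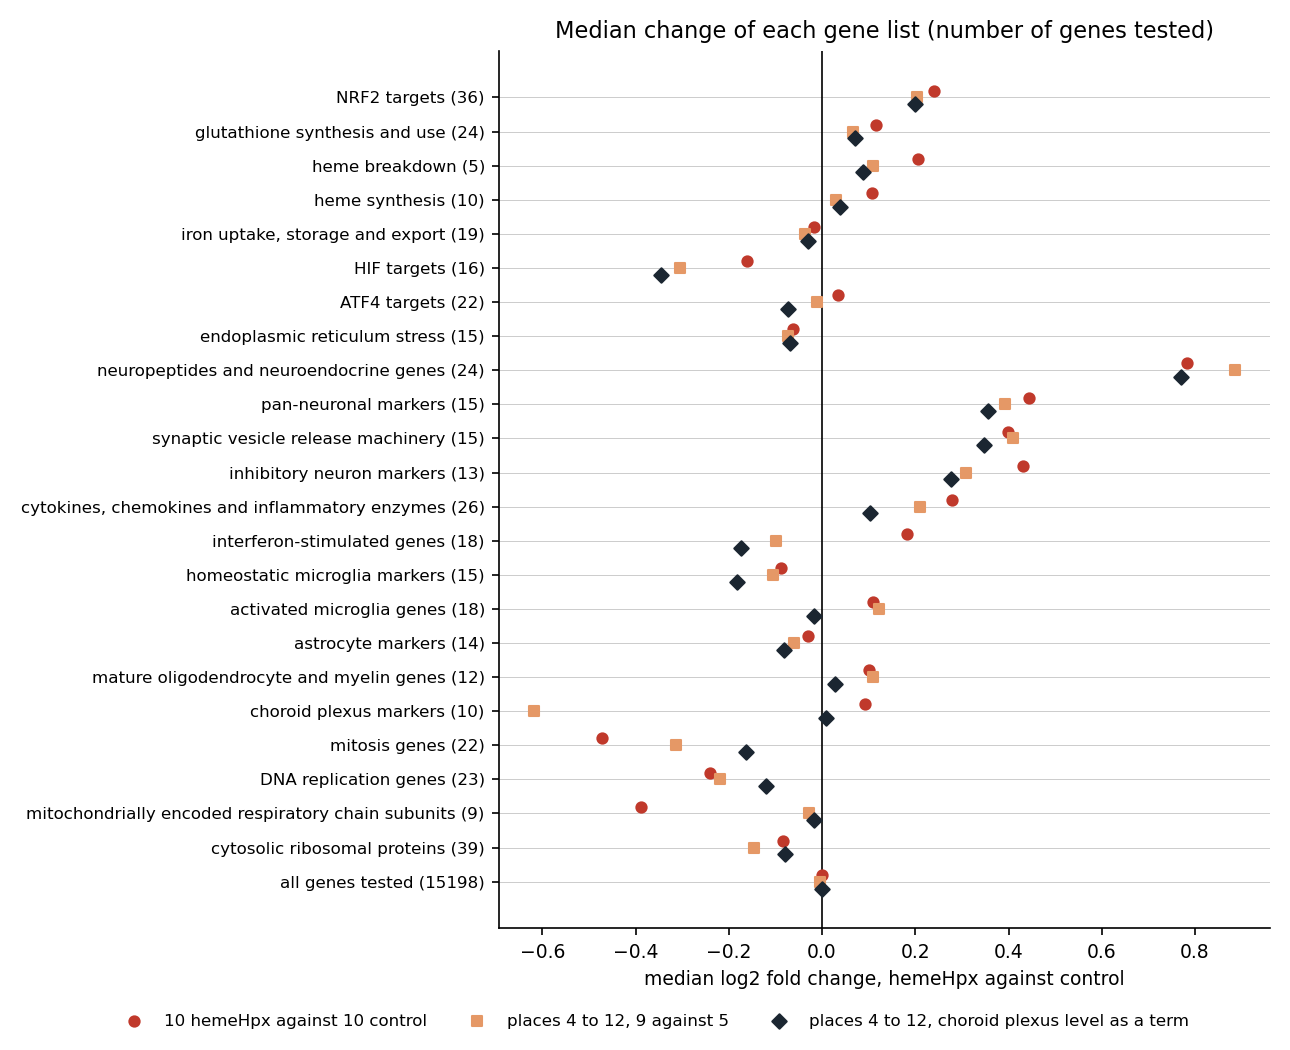
Median log2 fold change of hemeHpx against control (horizontal axis) over the tested members of each gene list, with their number in parentheses, in the full comparison (circles), at places 4 to 12 (squares) and in the matched comparison (diamonds). NRF2 targets (0.24 and 0.20 in the full and matched comparisons), neuropeptides (0.78 and 0.77) and pan-neuronal markers (0.44 and 0.36) lie above 0, HIF targets (-0.16 and -0.34) below 0, and mitosis genes go from -0.47 to -0.16.

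Gclm, the regulatory subunit of the enzyme that starts glutathione synthesis, showed how the choice of controls mattered. The 5 controls at places 4 to 12 had 95.6, 107, 108, 113 and 114 CPM, and the 5 at places 1 to 3 had 122 to 137 CPM. The hemeHpx libraries had 115 to 150 CPM (median 133 CPM). All 9 later hemeHpx libraries thus lay above all 5 later controls, whereas only 4 of 10 lay above all controls. The log2 fold change was 0.18 ± 0.06 (adjusted p = 0.0549) in the full comparison and 0.32 ± 0.05 (adjusted p = 0.00769) in the matched one. With heme-albumin the level was 200 to 273 CPM, and hemeHpx was lower by 0.77 ± 0.06 on the log2 scale (adjusted p = 1.71e-09).

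Nqo1, a quinone reductase and the gene most used to report NRF2 activity, had 8.46 to 13.4 CPM in the controls and 12.3 to 17.9 CPM with hemeHpx, and 8 of 10 hemeHpx libraries lay above the highest control. Its log2 fold change was 0.45 ± 0.08 (adjusted p = 0.00698) in the full comparison and 0.28 ± 0.09 (adjusted p = 0.125) in the matched one. Srxn1, which restores oxidized peroxiredoxins, had 62.8 to 93.8 CPM and 86.2 to 116 CPM, a log2 fold change of 0.43 ± 0.09 (adjusted p = 0.0125) and of 0.38 ± 0.09 (adjusted p = 0.0465) in the matched comparison. The call of Srxn1 in the matched comparison was kept in 4 of 14 fits that left out 1 library. Osgin1, an oxidative stress response gene, ran from 4.74 to 8.28 CPM in the controls and from 8.42 to 11.8 CPM with hemeHpx, without overlap, and its log2 fold changes were 0.58 ± 0.10 (adjusted p = 0.00611) and 0.36 ± 0.10 (adjusted p = 0.0931).

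Enzymes of the pentose phosphate pathway, a main source of NADPH for glutathione, were higher in one comparison or the other. G6pdx, its first enzyme, had 156 to 208 CPM in the controls and 183 to 230 CPM with hemeHpx, with log2 fold changes of 0.16 ± 0.06 (adjusted p = 0.0631) in the full and 0.25 ± 0.04 (adjusted p = 0.00813) in the matched comparison. G6pdx overlaps Ikbkg on the opposite strand, and Ikbkg was also higher in the full comparison (0.28 ± 0.05, adjusted p = 0.00698). Pgd (0.37 ± 0.07, adjusted p = 0.0126) and Taldo1 (0.33 ± 0.08, adjusted p = 0.0229), 2 later enzymes of the pathway, were higher in the full comparison and had matched values of 0.21 ± 0.06 (adjusted p = 0.104) and 0.20 ± 0.06 (adjusted p = 0.109). Both stood lower in the controls at places 1 to 3 than in the later ones.

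The glutathione transferase Gstp1 was called in both comparisons, with 80.2 to 122 CPM in the controls, 108 to 153 CPM with hemeHpx and log2 fold changes of 0.32 ± 0.07 (adjusted p = 0.0226) and of 0.34 ± 0.07 (adjusted p = 0.0277). Gstm1, another transferase, had 0.22 ± 0.07 (adjusted p = 0.0472) and 0.23 ± 0.06 (adjusted p = 0.0711). Both belong to families of similar genes, between which reads may be shared. Prdx1, a peroxiredoxin that reduces hydrogen peroxide, had medians of 541 and 663 CPM and log2 fold changes of 0.40 ± 0.10 (adjusted p = 0.028) and of 0.28 ± 0.09 (adjusted p = 0.159). Slc7a11, the cystine importer, did not pass the test, at 102 to 220 CPM in the controls and 152 to 326 CPM with hemeHpx (0.28 ± 0.12, adjusted p = 0.115), and with heme-albumin it stood at 446 to 689 CPM.

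NRF2 targets were lower with hemeHpx than with heme-albumin. Of 15198 genes, 4317 (28.4%) differed between the carriers, 2117 (13.9%) higher and 2200 (14.5%) lower with hemeHpx. Of the 36 NRF2 targets, 28 were lower and none was higher with hemeHpx, with a median log2 difference of -0.36. Srxn1 was lower by 0.82 ± 0.09 (adjusted p = 9.24e-08), with 145 to 240 CPM under heme-albumin, and Nqo1 by 0.41 ± 0.08 (adjusted p = 0.00085), with 16.2 to 22.5 CPM. Of 22 targets of ATF4, the transcription factor of the amino acid response, 16 were lower and none was higher than with heme-albumin, and of 31 proteasome subunits 26 were lower. Of 15 microglia markers 12 were higher than with heme-albumin and none was lower, with a median of 0.76. In the fit at places 4 to 12 with the choroid plexus term that median was 0.46 and 11 of 15 were higher, where 2207 of 15501 genes were. The microglia sum of the heme-albumin libraries was 870 to 950 CPM in the 2 with choroid plexus transcripts and 479 to 793 CPM in the 8 without, so it moved with a set that held 6 of 10 hemeHpx libraries, and the part of that set in the difference was not tested further.

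Neuronal and secretory genes were called alongside the heme response. Ptprn, a membrane protein of dense-core secretory granules, had 102 to 170 CPM in the controls (median 135 CPM) and 157 to 228 CPM with hemeHpx (median 191 CPM), and 8 of 10 hemeHpx libraries lay above the highest control. Its log2 fold change was 0.50 ± 0.07 (adjusted p = 0.00302) in the full comparison, the smallest adjusted p there, and 0.43 ± 0.07 (adjusted p = 0.00479) in the matched one. The call held in each fit that left out 1 library, in both comparisons. Heme-albumin gave 160 to 228 CPM, and the difference between the carriers was -0.14 ± 0.07 (adjusted p = 0.146).

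Vgf, the precursor of several secreted neuropeptides, had 25.9 to 50.9 CPM in the controls (median 36.8 CPM) and 41.2 to 103 CPM with hemeHpx (median 67.9 CPM), with 8 of 10 above the highest control. This was a log2 fold change of 0.85 ± 0.17 (adjusted p = 0.00972) in the full and 0.77 ± 0.14 (adjusted p = 0.00909) in the matched comparison. With heme-albumin it stood at 23.3 to 86.1 CPM (median 66.9 CPM), and the log2 difference between the carriers was 0.02 ± 0.16 (adjusted p = 0.946).

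Kirrel3, Dpysl5 and Cnih3 were higher with hemeHpx than in the controls and than with heme-albumin. Kirrel3, a synaptic adhesion protein, had 16.2 to 24.7 CPM in the controls, 24.4 to 30.3 CPM with hemeHpx and 15.5 to 26.5 CPM with heme-albumin. Its log2 fold change against control was 0.46 ± 0.08 (adjusted p = 0.00472) and in the matched comparison 0.49 ± 0.08 (adjusted p = 0.00479), and against heme-albumin 0.35 ± 0.08 (adjusted p = 0.0019). Dpysl5, of the family that shapes growing axons and dendrites, had 9.29 to 16.7 CPM in the controls and 16.1 to 25.1 CPM with hemeHpx, with log2 fold changes of 0.54 ± 0.09 (adjusted p = 0.00547) and of 0.50 ± 0.09 (adjusted p = 0.00909), and lay 0.61 ± 0.09 above heme-albumin (adjusted p = 3.98e-05).

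Cnih3, an auxiliary subunit of AMPA receptors, followed the same order, with medians of 5.09 CPM in the controls, 7.65 CPM with hemeHpx and 5.37 CPM with heme-albumin. Its log2 fold change was 0.62 ± 0.13 (adjusted p = 0.0164) in the full and 0.69 ± 0.12 (adjusted p = 0.00813) in the matched comparison, and 0.49 ± 0.13 against heme-albumin (adjusted p = 0.00658). Slc4a8, a bicarbonate transporter of neurons, had 33.1 to 46.7 CPM in the controls and 44.2 to 60.2 CPM with hemeHpx, and log2 fold changes of 0.42 ± 0.07 (adjusted p = 0.00472) and of 0.31 ± 0.06 (adjusted p = 0.017). Gpc1, a cell-surface heparan sulfate proteoglycan, had 74.4 to 111 CPM and 113 to 143 CPM, without overlap, and log2 fold changes of 0.49 ± 0.09 (adjusted p = 0.00807) and of 0.33 ± 0.06 (adjusted p = 0.00909). It was the single gene called when controls and hemeHpx libraries at places 4 to 12 were fitted on their own.

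Of the 15 pan-neuronal markers, 2 were called higher in the full comparison (Nefm and Uchl1, against 4.59% of all genes) and 2 in the matched one (Stmn2 and Uchl1, against 0.458%), with medians of 0.44 and 0.36, and all 15 had a positive value in the matched one. Neither of the latter stayed called without control replicate 2 (adjusted p = 0.125 for Uchl1 and 0.139 for Stmn2). The marker sum moved with the choroid plexus set, at 1148 to 1253 CPM in the controls with choroid plexus transcripts and 879 to 1042 CPM in those without, and at 1141 to 1444 CPM and 896 to 1287 CPM in the corresponding hemeHpx libraries, and the part of that set in these values was not tested further. Uchl1, an abundant neuronal deubiquitinase, had 89.2 to 121 CPM in the controls and 121 to 172 CPM with hemeHpx, without overlap, a log2 fold change of 0.41 ± 0.08 (adjusted p = 0.00972) and of 0.36 ± 0.07 (adjusted p = 0.0252). Stmn2, a microtubule regulator of growing axons, varied widely, from 15.5 to 72.2 CPM in the controls and from 22.4 to 104 CPM with hemeHpx, with 0.79 ± 0.30 (adjusted p = 0.0729) and 0.88 ± 0.20 (adjusted p = 0.0399). Nefm, a neurofilament subunit, had 0.57 ± 0.18 (adjusted p = 0.0446) and 0.71 ± 0.21 (adjusted p = 0.113).

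Of 15 genes of synaptic vesicle release, 5 were higher in the full comparison (4.59% of all genes were) and none in the matched one, with medians of 0.40 and 0.35. Their sum was 615 to 707 CPM in the controls with choroid plexus transcripts and 479 to 603 CPM in those without, and 660 to 841 CPM and 542 to 854 CPM in the corresponding hemeHpx libraries. Among the 5 were Rab3a and Sv2a. Rab3a (0.48 ± 0.11, adjusted p = 0.0226) and Sv2a (0.43 ± 0.11, adjusted p = 0.0266), both proteins of the vesicle membrane, had matched values of 0.38 ± 0.10 (adjusted p = 0.0663) and 0.28 ± 0.07 (adjusted p = 0.0696).

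Neuropeptide genes differed mostly where their levels were low. Of 24 tested, 6 were higher in the full comparison (4.59% of all genes were), with a list median of 0.78, and Vgf alone of these 24 in the matched one, with a median of 0.77 and all 24 values positive. Avp, also listed, was under the count filter over all 30 libraries and is not among the 24. It passed only the filter set anew for the 23 libraries, where the smallest group was the 5 controls, and was called higher in the matched comparison. A gene can pass such a filter through the group in which it is high. That call is therefore not counted with the list, and no value is given for it. Whether it rested on 1 library was not checked. The summed level of the list, set by its abundant members, was 1117 to 1336 CPM in the controls (median 1278 CPM) and 1048 to 1511 CPM with hemeHpx (median 1348 CPM), and in libraries without choroid plexus transcripts its median was 1264 CPM in the controls and 1237 CPM with hemeHpx. Scg2, a granin of secretory granules, had 4.05 to 33.1 CPM in the controls (median 9.97 CPM) and 4.38 to 75.9 CPM with hemeHpx (median 36.8 CPM), and 6 of 10 hemeHpx libraries lay above the highest control. Its log2 fold changes were 1.43 ± 0.41 (adjusted p = 0.0346) and 1.18 ± 0.39 (adjusted p = 0.156).

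The hypothalamic peptides stood at very low levels. Oxt, the oxytocin precursor, had 0 to 0.906 CPM in the controls (median 0.0885 CPM) and 0.0582 to 8.38 CPM with hemeHpx (median 0.972 CPM), a fitted log2 fold change of 2.90 ± 0.87 (adjusted p = 0.0383) and of 3.01 ± 0.85 (adjusted p = 0.0961) in the matched comparison. Trh, the thyrotropin-releasing hormone, had medians of 0.418 and 2.61 CPM and log2 fold changes of 1.89 ± 0.60 (adjusted p = 0.0444) and of 1.75 ± 0.63 (adjusted p = 0.197). Crh, the corticotropin-releasing hormone, had medians of 0.179 and 1.38 CPM (1.55 ± 0.49, adjusted p = 0.0433, and 1.49 ± 0.47, adjusted p = 0.134), and Cartpt, an appetite-regulating peptide precursor, 0.442 and 1.60 CPM (1.83 ± 0.59, adjusted p = 0.0453, and 1.14 ± 0.69, adjusted p = 0.514). In each of these genes the groups overlapped.

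The mean neuropeptide level also moved with the choroid plexus set, at 2.19 to 2.73 on the log2 CPM scale in the 3 controls with choroid plexus transcripts and 1.21 to 2.09 in the 7 without, and at 2.38 to 3.11 and 1.35 to 2.93 in the corresponding 6 and 4 hemeHpx libraries. Lists of region markers had medians of both signs, given here for the full and the matched comparison. They were 0.15 and 0.30 for 7 hypothalamus markers, which include Oxt and Trh, and 0.14 and 0.02 for 13 thalamus and habenula markers. For 15 striatum markers they were -0.16 and -0.08, and for 15 cortex and hippocampus markers -0.24 and -0.12. The hypothalamus sum had medians of 25.8 CPM in the controls and 23.9 CPM with hemeHpx. The part of differing slice positions in the values of these lists was not tested. Other genes among the most raised in the full comparison were Baiap3 (1.41 ± 0.37, adjusted p = 0.0282), Resp18 (1.19 ± 0.39, adjusted p = 0.0484) and Vwa5b2 (1.28 ± 0.23, adjusted p = 0.00698), of which Vwa5b2 was also called in the matched one (1.08 ± 0.24, adjusted p = 0.0375). Nell1, Nrsn2 and Tmem130, which are expressed in neurons, had log2 fold changes of 1.27 ± 0.37 (adjusted p = 0.0362), 1.22 ± 0.34 (adjusted p = 0.0327) and 1.28 ± 0.41 (adjusted p = 0.0461), with matched adjusted p of 0.275, 0.136 and 0.167.

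Fos and Arc, which neurons transcribe within minutes of firing, did not overlap between the groups. Fos had 61.3 to 92.5 CPM in the controls and 95.4 to 113 CPM with hemeHpx, a log2 fold change of 0.32 ± 0.09 (adjusted p = 0.0349), and Arc 29.8 to 42.9 CPM and 44.1 to 58.5 CPM, a log2 fold change of 0.42 ± 0.09 (adjusted p = 0.0173). Neither was called in the matched comparison, where the values were 0.22 ± 0.08 (adjusted p = 0.223) and 0.29 ± 0.08 (adjusted p = 0.0963). Of the 17 activity-dependent genes tested, 3 were higher in the full comparison (4.59% of all genes were) and none in the matched one.

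Hypoxia-inducible factors (HIF) are transcription factors that build up when oxygen is short and that bind the core letters ACGTG. The promoters of Egln3, which encodes an oxygen sensor that marks HIF for destruction, and of Bnip3, a mitochondrial protein of mitophagy, are shown because both genes were lower in the matched comparison and hold those letters on either strand within 250 bases before the start (RefSeq, GRCm38.p6, along the strand of the gene, match in capitals). The windows are chr12:54203875-54204124 and chr7:138909507-138909756, both on the minus strand.
Egln3: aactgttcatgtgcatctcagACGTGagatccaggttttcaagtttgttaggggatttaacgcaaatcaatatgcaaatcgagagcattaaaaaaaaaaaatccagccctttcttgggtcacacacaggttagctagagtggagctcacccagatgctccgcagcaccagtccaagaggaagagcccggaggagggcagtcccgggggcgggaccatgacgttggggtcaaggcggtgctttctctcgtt
Bnip3: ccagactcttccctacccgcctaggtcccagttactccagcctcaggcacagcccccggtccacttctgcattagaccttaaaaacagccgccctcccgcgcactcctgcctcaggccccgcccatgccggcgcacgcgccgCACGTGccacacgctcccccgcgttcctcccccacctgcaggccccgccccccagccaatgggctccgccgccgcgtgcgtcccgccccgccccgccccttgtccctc
The match begins 229 bases before the start in Egln3, and in Bnip3 the letters overlap on the 2 strands, 108 and 107 bases before it. Of the 16 listed HIF targets, 14 had a promoter in the table and 10 of these (71.4%) held the letters, against 16.6% of all promoters and 21% of those of genes tested. Vegfa, Pdk1 and Adm had no match in this window. These letters alone show no binding.

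Some HIF targets were called lower in the matched comparison, and none of these calls held without control replicate 2. In the full comparison 1 of 16 was higher (Ndrg1) and 1 lower (Egln3), with a median of -0.16. These shares were near the 4.59% and 5.94% of all genes. In the matched comparison 6 of 16 were lower and none was higher, against 0.219% of all genes lower, with a median of -0.34, and the 6 were Vegfa, Egln3, Pdk1, Adm, Bnip3 and P4ha1. None of the 6 stayed called without control replicate 2 (adjusted p from 0.0562 to 0.179), and at places 4 to 12 without the choroid plexus term none of the 16 was called. Their log2 fold changes without replicate 2 were -1.30 for Vegfa, -0.94 for Egln3 and -0.76 for Pdk1. They were -0.66 for Adm, -0.68 for Bnip3 and -0.31 for P4ha1, so the adjusted p rose while the sizes stayed alike. The summed level of the list was 1591 to 1994 CPM in the controls at places 1 to 3 (median 1758 CPM), 1925 to 2714 CPM in the later controls (median 2318 CPM) and 1876 to 2442 CPM with hemeHpx (median 1971 CPM), so that hemeHpx lay between the 2 sets of controls by the medians. Vegfa, which drives vessel growth, had 59.1, 65.8, 128, 166 and 190 CPM in the 5 later controls, 45.8 to 108 CPM in the 5 at places 1 to 3, and 36.8 to 113 CPM with hemeHpx (median 58.2 CPM). The later controls were themselves widely spread. Its log2 fold change was -0.66 ± 0.24 (adjusted p = 0.0693) in the full and -1.22 ± 0.21 (adjusted p = 0.00829) in the matched comparison.

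Egln3 had 10.4 to 53.7 CPM in the controls and 11.9 to 22.4 CPM with hemeHpx, so that the hemeHpx libraries lay within the range of the controls but in its lower part. Its log2 fold changes were -0.80 ± 0.24 (adjusted p = 0.0374) and -0.96 ± 0.23 (adjusted p = 0.047). Pdk1, which closes the entry of pyruvate into mitochondria, had -0.37 ± 0.16 (adjusted p = 0.119) in the full and -0.69 ± 0.16 (adjusted p = 0.0399) in the matched comparison. Adm, the vasodilator adrenomedullin, had -0.43 ± 0.15 (adjusted p = 0.0605) and -0.64 ± 0.15 (adjusted p = 0.0399), and Bnip3 had -0.36 ± 0.15 (adjusted p = 0.107) and -0.62 ± 0.14 (adjusted p = 0.0433). P4ha1, a collagen prolyl hydroxylase, had -0.13 ± 0.12 (adjusted p = 0.443) and -0.29 ± 0.06 (adjusted p = 0.0221). Calls among the 6 held in 4 (Bnip3) to 13 (Vegfa) of the 14 fits that left out 1 library of the matched comparison.

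Other genes known to respond to low oxygen, chosen after their values had been seen, were among the 34 that were lower in the matched comparison. Ak4, a mitochondrial adenylate kinase, had -0.70 ± 0.14 (adjusted p = 0.0216), Fam162a, a mitochondrial protein, -0.53 ± 0.11 (adjusted p = 0.0237), Pfkl, the liver-type phosphofructokinase of glycolysis, -0.67 ± 0.13 (adjusted p = 0.021), and Egln1, the main oxygen sensor of HIF, -0.25 ± 0.05 (adjusted p = 0.0297). Apln, a vascular peptide, had 31.3 to 70.6 CPM with hemeHpx and 32.2 to 94.5 CPM in the controls, with -0.55 ± 0.09 (adjusted p = 0.00479), and it stayed called whichever library of the matched comparison was left out. In the full comparison its value was -0.18 ± 0.16 (adjusted p = 0.448). Ndrg1 went the other way in the full comparison, with medians of 129 CPM in the controls and 172 CPM with hemeHpx (0.33 ± 0.10, adjusted p = 0.0433), and had 0.17 ± 0.06 (adjusted p = 0.179) in the matched one.

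Genes of cell division were called lower in the full comparison but not in the matched one. Of 22 mitosis genes, 12 were lower and none higher in the full comparison (median -0.47, 5.94% of all genes lower), and none was called in the matched one, where the median was -0.16 and none of the 22 values was positive. Top2a, the topoisomerase of dividing cells, had medians of 220 CPM in the controls and 153 CPM with hemeHpx, and log2 fold changes of -0.50 ± 0.16 (adjusted p = 0.0478) and of -0.15 ± 0.06 (adjusted p = 0.288). Mki67, the usual proliferation marker, had -0.48 ± 0.16 (adjusted p = 0.0477) and -0.07 ± 0.08 (adjusted p = 0.783), and Ccna2, cyclin A2, -0.52 ± 0.16 (adjusted p = 0.0372) and -0.20 ± 0.06 (adjusted p = 0.142).

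The level of the mitosis genes moved with the choroid plexus set. They summed to 682 to 1059 CPM in the 3 controls with choroid plexus transcripts and to 1046 to 1767 CPM in the 7 without, and to 580 to 916 CPM in the 6 such hemeHpx libraries and to 1014 to 1181 CPM in the other 4. Among the 12 genes lowered most in the full comparison, several act in cell division. Depdc1a, a mitotic regulator, had 1.86 to 13.5 CPM in the controls and 1.75 to 3.78 CPM with hemeHpx (-0.95 ± 0.25, adjusted p = 0.029, and -0.27 ± 0.15, adjusted p = 0.457). Prr11 (-0.68 ± 0.17, adjusted p = 0.0266), Kif18a (-0.63 ± 0.19, adjusted p = 0.0382) and Esco2 (-0.63 ± 0.18, adjusted p = 0.0327), which act in division or in chromatid cohesion, had matched values of -0.16 to -0.22, none past the threshold.

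Of 23 genes of DNA replication, 8 were lower in the full comparison (median -0.24, 5.94% of all genes lower). None was called in the matched one, where the median was -0.12 and none of the 23 values was positive. Rrm2, the ribonucleotide reductase subunit that supplies deoxynucleotides, had medians of 112 and 77.4 CPM, and log2 fold changes of -0.46 ± 0.14 (adjusted p = 0.0406) and of -0.26 ± 0.07 (adjusted p = 0.064).

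Mitochondrially encoded genes followed the place of the libraries. Of 9 tested, 4 were lower in the full comparison (5.94% of all genes were) and none in the matched one, with medians of -0.39 and -0.02. Also listed, mt-Co2, mt-Co3, mt-Atp6 and mt-Atp8 were under the count filter, so they hardly enter the mitochondrially encoded share of the libraries. Why their counts were so low is not given. The NADH dehydrogenase subunit mt-Nd2 had a median of 5487 CPM in the controls at places 1 to 3, 2359 CPM in the later controls and 2403 CPM with hemeHpx, a log2 fold change of -0.64 ± 0.20 (adjusted p = 0.0435) in the full comparison that was 0.0015 ± 0.14 (adjusted p = 0.998) in the matched one. For mt-Nd1 the values were -0.52 ± 0.16 (adjusted p = 0.044) and -0.03 ± 0.12 (adjusted p = 0.957), and for mt-Nd3, at 0.382 to 3.10 CPM in the controls, -0.88 ± 0.28 (adjusted p = 0.0469) and -0.24 ± 0.26 (adjusted p = 0.786). The exception was mt-Nd6, encoded on the other strand, with 82.6 to 115 CPM in the controls and 71.3 to 93.3 CPM with hemeHpx and a difference of like size in both comparisons, -0.25 ± 0.07 (adjusted p = 0.0281) and -0.26 ± 0.08 (adjusted p = 0.135).

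Endoplasmic reticulum stress genes were called lower in the full comparison alone. Of 15 genes of endoplasmic reticulum stress, 4 were lower in the full comparison (5.94% of all genes were) and none was called in the matched one. The medians were -0.06 and -0.07, and none of the 15 values was positive in the matched one. Their summed level was 3660 to 4123 CPM in the controls and 3446 to 3620 CPM with hemeHpx, without overlap. In the controls at places 4 to 12 it was 3660 to 3876 CPM. The chaperones Hsp90b1 (-0.28 ± 0.07, adjusted p = 0.0236) and Calr (-0.17 ± 0.05, adjusted p = 0.037) lay higher in the controls at places 1 to 3 and had matched values of -0.11 ± 0.05 (adjusted p = 0.297) and -0.07 ± 0.05 (adjusted p = 0.581). Of 22 ATF4 targets, 2 were lower in the full comparison, a share near the 5.94% of all genes, Psat1 (-0.24 ± 0.06, adjusted p = 0.027), an enzyme of serine synthesis, and Slc7a5 (-0.23 ± 0.07, adjusted p = 0.0446), an importer of large neutral amino acids. Slc7a5 was also lower in the matched comparison (-0.30 ± 0.05, adjusted p = 0.00909). It had 98.9 to 161 CPM in the controls, 95.2 to 136 CPM with hemeHpx and 176 to 201 CPM with heme-albumin, so that the carriers lay on opposite sides of the controls by their medians, and the difference between the carriers was -0.69 ± 0.07 (adjusted p = 1.32e-07).

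Of 26 cytokines, chemokines and inflammatory enzymes tested, Il19 and Tnfrsf1a were higher in the full comparison, a share near the 4.59% of all genes, and none in the matched one, with medians of 0.28 and 0.10. Il19, a cytokine of the interleukin 10 family, had 0 to 0.931 CPM in the controls and 0.368 to 4.22 CPM with hemeHpx, with 8 of 10 above the highest control, and log2 fold changes of 1.95 ± 0.46 (adjusted p = 0.023) and of 1.33 ± 0.44 (adjusted p = 0.156). Tnfrsf1a, a receptor of tumor necrosis factor, had 216 to 255 CPM and 236 to 277 CPM (0.12 ± 0.04, adjusted p = 0.0484, and 0.08 ± 0.04, adjusted p = 0.422). Gpr84, a fatty acid receptor of activated myeloid cells, did not pass the test (0.53 ± 0.29, adjusted p = 0.195). Acod1, which makes itaconate in activated macrophages, had the largest log2 fold change of the genes raised in the full comparison with a mean of at least 1 CPM (3.15 ± 0.89, adjusted p = 0.0329), but it rested on hemeHpx replicate 4 at 29.3 CPM. Without that library its value was -0.05 (adjusted p = 0.948).

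The markers of microglia did not pass the test. Of 15 homeostatic microglia markers, none was called in either comparison, with medians of -0.09 and -0.18. Their sum was 1517 to 1769 CPM in the 3 controls with choroid plexus transcripts and 654 to 1219 CPM in the 7 without, and 1139 to 1488 CPM and 696 to 1139 CPM in the corresponding hemeHpx libraries. Of 18 genes of activated microglia, Fabp5, a fatty acid carrier, was the 1 called higher in the full comparison, a share near the 4.59% of all genes. Its log2 fold change was 0.37 ± 0.12 (adjusted p = 0.0486), and it was not called in the matched comparison (0.14 ± 0.06, adjusted p = 0.358). Of 9 markers of border-associated macrophages, Pf4 alone was higher in the full comparison, where 4.59% of all genes were (0.59 ± 0.19, adjusted p = 0.0444, matched 0.41 ± 0.15, adjusted p = 0.189).

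Ppbp and Clec4n, a chemokine precursor and a lectin receptor of myeloid cells, were called in both comparisons. Ppbp had 0.0533 to 0.71 CPM in the controls and 0.652 to 2.05 CPM with hemeHpx, with 9 of 10 above the highest control, and log2 fold changes of 1.88 ± 0.32 (adjusted p = 0.00472) and of 2.35 ± 0.41 (adjusted p = 0.00829). With heme-albumin it had 0.154 to 0.81 CPM, and hemeHpx was higher by 1.67 ± 0.30 on the log2 scale (adjusted p = 0.000267). Clec4n had 2.48 to 9.55 CPM in the controls and 7.30 to 17.5 CPM with hemeHpx (0.90 ± 0.19, adjusted p = 0.0174, and 1.09 ± 0.21, adjusted p = 0.0145), and all 9 later hemeHpx libraries lay above all 5 later controls. With heme-albumin it was 13.7 to 27.8 CPM, and hemeHpx was lower by 0.85 ± 0.18 (adjusted p = 0.00175).

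In the full comparison, where 4.59% of all genes were higher, 2 of 13 inhibitory neuron markers (Gad1 and Slc32a1) and 2 of 8 excitatory neuron markers (Cux2 and Grin1) were higher, with list medians of 0.43 and 0.25, and neither list held a call in the matched one, with medians of 0.28 and 0.18. Of 24 genes of glutathione synthesis and use, 3 were higher in the full comparison (Ggt7, Oplah and Gstm1). In the matched one, where 0.458% of all genes were higher, 1 was (Gclm). Of 12 cytosolic heat shock chaperones the near-identical pair Hspa1a and Hspa1b, between which reads cannot be assigned with certainty, was higher in the full comparison and not called in the matched one. Among 10 regulators and partners of NRF2, Mafg, a small MAF protein, was higher and Cul3, a ubiquitin ligase subunit that acts with the NRF2 repressor Keap1, lower in the full comparison. There 5.94% of all genes were lower, and neither was called in the matched one. None of 31 proteasome subunits, 18 interferon-stimulated genes, 12 myelin genes and 15 brain endothelial markers was called in either comparison.

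The libraries at places 4 to 12, without the choroid plexus term, gave 11 called genes, which were Gclm, Gpc1, Ptprn, Kirrel3, Dpysl5, Cnih3, Vgf, Zim1, Clec4n, Cyp1a1 and Ppbp. All 11 were also called with the term. Zim1 was chosen after its values had been seen. Zim1, an imprinted zinc finger gene, had 2.02 to 5.51 CPM in the controls and 2.91 to 5.59 CPM with hemeHpx (0.53 ± 0.17, adjusted p = 0.0456, and 0.78 ± 0.14, adjusted p = 0.00863). Cyp1a1, a target of the aryl hydrocarbon receptor, was under the count filter over all 30 libraries, and no value is given for it.

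A few lowered genes belonged to none of these groups. As3mt, a methyltransferase of arsenic, had 24.1 to 31 CPM in the controls and 18.3 to 22.8 CPM with hemeHpx, without overlap, and log2 fold changes of -0.38 ± 0.07 (adjusted p = 0.00611) and of -0.33 ± 0.07 (adjusted p = 0.0368). Elovl2, an elongase of very long polyunsaturated fatty acids, had medians of 10.1 and 5.71 CPM (-0.66 ± 0.18, adjusted p = 0.0322, and -0.50 ± 0.12, adjusted p = 0.0428). Pdlim3, a cytoskeletal adaptor, had -0.94 ± 0.26 (adjusted p = 0.0324) and -0.64 ± 0.20 (adjusted p = 0.126), and H60b, a ligand of the NKG2D receptor that overlaps Raet1e on the same strand, -0.79 ± 0.26 (adjusted p = 0.0494) and -0.36 ± 0.19 (adjusted p = 0.433). Asdurf, which lies within Asnsd1 on the same strand, had -0.63 ± 0.21 (adjusted p = 0.0494) in the full and 0.05 ± 0.13 (adjusted p = 0.939) in the matched comparison. Nipal3, a magnesium transporter, was higher in both (0.34 ± 0.06, adjusted p = 0.00698, and 0.27 ± 0.06, adjusted p = 0.0375).

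How far the calls rested on 1 library was recorded for the 100 genes followed in this way. Of 79 called in the full comparison, 24 stayed called in each of 20 fits that left out 1 control or hemeHpx library, among them Slc48a1, Alas1, Tfrc, Nqo1, Srxn1, Osgin1, Ptprn, Vgf, Kirrel3, Ppbp and As3mt. Calls held in 14 of the 20 fits for Slc40a1, in 12 for Scg2 and Oxt, in 7 for Trh and Cartpt, in 6 for Top2a and mt-Nd2, and in 5 for Gstm1. Of 38 called in the matched comparison, 6 stayed called in each of its 14 fits (Heph, G6pdx, Ptprn, Kirrel3, Cnih3 and Apln), and the same 6 were those that stayed called without control replicate 2.

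The change with hemeHpx was also compared between the libraries lettered M and W. By edgeR's interaction test over 15007 genes, 0 genes differed in their response after adjustment and 385 had an unadjusted p under 0.05, and DESeq2 gave 0 and 547. Within the M libraries alone and within the W libraries alone, 0 genes were called for hemeHpx against control, with 2796 and 2638 at an unadjusted p under 0.05.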

How the data were processed

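Per the labels and the study's methods, 2 slices were cultured on an insert, RNA was extracted with a Lexogen SPLIT kit and libraries were made with an Illumina TruSeq mRNA kit. The authors deposited raw read counts per gene for each library. The submitters' processing notes name featureCounts and GRCm39. The aligner, annotation release and strand setting are not given in the sources used here. Library totals ran from 11038484 to 44199060 counts over controls and hemeHpx.

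Counts of 25655 genes were used as deposited, and 25600 matched a symbol in the GRCm38 tables at hand. In R 4.3.3, genes were kept by filterByExpr of edgeR 4.0.16 (smallest count 10, smallest total 15), scaled by TMM and tested with the quasi-likelihood F test in 1 fit of control, hemeHpx and heme-albumin libraries of batch 1, without covariates. P-values were Benjamini-Hochberg adjusted with a threshold of 0.05, and SE is the size of the log2 fold change divided by the root of F. CPM carry the TMM scaling, and log CPM a prior count of 2. The alternatives used DESeq2 1.42.0, RLE scaling, other filters, samples and covariates, a replicate block, thinning, a GC content and length correction per bin with GRCm38 values, and leaving out 1 library at a time. Fits by place in the name order or with the choroid plexus level were chosen once the data had been looked at. Scripts were tested on simulated data.

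Groups came from the treatment tags. The library names carry codes (M1 to W5) that recur between groups. Some also recur within a group. Control replicates 6 and 7 share W1, and replicates 8 and 9 share W4 in hemeHpx and in heme-albumin. Whether libraries of 1 code share a source is not given. Deviations of same-code libraries from their group means correlated by -0.668 to 0.527 (11 pairs), and those of other codes by -0.690 to 0.698, so the codes were not used as pairs. Place and choroid plexus level also enter these deviations, so this check cannot decide whether the codes mark pairs. No libraries were near-identical. Members and gene lists were chosen with earlier results of these data known. Genes are named if the study names them, if they are among the 12 raised most or the 12 lowered most past the threshold (mean level 1 CPM or more), among the 10 of smallest p or, per list, the 4 of smallest p and any past the threshold, or if they act in heme or iron handling. Unmatched symbols and sex-linked marker genes were left out of the ranked parts of that rule. Promoters came from RefSeq on GRCm38.p6, a build other than that of the files, and no gene coordinates of the files are given.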

Additional observations from a re-analysis of the deposited data

Results flagged for a closer look

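A library was set apart where the gap between the highest or lowest of 10 values and its neighbour exceeded, as a share of their range, Dixon's critical value for 10, which chance gives in about 1 of 20 groups. This held in 21 of 206 groups of 10 values, and no test of this share was made.

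Some of these values belonged to 1 library. HemeHpx replicate 8, the hemeHpx library at places 1 to 3, stood apart in its mitochondrially encoded share (4.51%, the next library 3.37%), in the mean GC content of its counts (49.45%, next 49.9%), in mt-Nd1 (4564 CPM, next 3375 CPM) and mt-Nd2 (3804.5 CPM, next 2644 CPM), and also in Asdurf (6.33 CPM, next 4.85 CPM) and Cnih3 (5.25 CPM, the lowest, next 6.98 CPM).

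HemeHpx replicate 4 was highest in myeloid genes. Its level was 29.3 CPM for Acod1 (next 0.756 CPM), 14.1 CPM for Gpr84 (next 4.12 CPM) and 17.5 CPM for Clec4n (next 10.8 CPM), and it held the highest Alas1 of the hemeHpx libraries (73.4 CPM, next 59.3 CPM).

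HemeHpx replicate 7 was highest in the genes that respond to low oxygen, with 113 CPM for Vegfa (next 75.4 CPM), 50.1 CPM for Bnip3 (next 35.6 CPM) and 70.6 CPM for Apln (next 51.8 CPM), and in the neuropeptide Cartpt (11.7 CPM, next 5.61 CPM). HemeHpx replicate 10 was highest in Slc7a11 (326 CPM, next 241 CPM).

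Among the controls, replicate 2, the control with the highest choroid plexus level, was highest in Blvrb (36.1 CPM, next 25.2 CPM), Apln (94.5 CPM, next 54.1 CPM), Ndrg1 (192 CPM, next 150 CPM) and Trh (3.46 CPM, next 1.79 CPM). Control replicate 1 was highest in Depdc1a (13.5 CPM, next 7.82 CPM) and control replicate 7 in Zim1 (5.51 CPM, next 3.87 CPM).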

How the results depend on the processing

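The count of 1600 genes for hemeHpx against control moved by over 1.5 times with the place and choice of libraries. It was 11 at places 4 to 12 (1 when controls and hemeHpx were fitted without heme-albumin, and 129 by DESeq2), 18 with place as a term, 32 with place and choroid plexus level as terms and 105 at places 4 to 12 with the choroid plexus level. It was 184 after the GC content and length correction, 916 without a filter on low counts, 1007 with only the groups compared, 0 in the M libraries and 0 in the W libraries alone, and 2748 with the name code taken as a replicate block. Whether the codes mark pairs is not known. Leaving out 1 library gave 70 (control 3) to 4098 (control 2), with 88 without control 1, 237 without control 8, 297 without hemeHpx 6, 322 without hemeHpx 9, 435 without hemeHpx 4, 486 without hemeHpx 7, 853 without control 5, 883 without hemeHpx 1 and 1041 without hemeHpx 3. The matched comparison gave 8 (without control 2) to 496 (without control 6), with 20 without control 10, 25 without control 9, 49, 52 and 53 without hemeHpx 1, 6 and 10, 54 without control 4, and 158 and 223 without hemeHpx 7 and 2. The count against heme-albumin was 2671 with the choroid plexus level as a term and 3151 to 4882 without 1 library. The causes were not tested.

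Of the 79 of 100 named genes called in the full comparison, DESeq2 kept all 75 that it could test, RLE scaling 79, the letter term 76, thinning 66 of 76, the choroid plexus term 63, all 60 libraries 60, no filter 53, the GC and length correction 29, place and choroid plexus as terms 16, places 4 to 12 9, and the matched comparison 27 with 11 others newly called. Directions turned for Asdurf (0.0345, 0.0315, 0.0456 and 0.0240 at places 4 to 12, with 2 groups, with the choroid plexus term and by DESeq2), mt-Nd2 (0.0015, matched), Por (-0.0070) and Tnfrsf1a (-0.0457) after the GC and length correction, and Acod1 (-0.0478 without hemeHpx replicate 4, otherwise up to 3.32). Depth limits the genes under 1 CPM, where a few reads set the values.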

Other observations

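Muc2, a secreted mucin, Gys1, the muscle-type glycogen synthase, and Slc16a4, a monocarboxylate transporter, fell outside the naming rule and were chosen after their values had been seen. In the matched comparison (edgeR's quasi-likelihood test) the log2 fold change was -1.59 ± 0.31 (adjusted p = 0.0147) for Muc2, -0.30 ± 0.07 (adjusted p = 0.0411) for Gys1 and -0.57 ± 0.13 (adjusted p = 0.0399) for Slc16a4. Muc2 was also called in the full comparison, and Gys1 and Slc16a4 were not. Whether these calls rested on 1 library was not checked.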
